A study of Homo sapiens with 15 samples.

Results

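Hyperoxia was compared with normoxia in A549 cells that received no all-trans-retinoic acid (ATRA). A549 is an established human line of alveolar basal epithelial origin derived from a lung adenocarcinoma, labelled wild type. The 8 libraries used were those whose labels name an oxygen exposure and no ATRA, out of 15 in the series. Hyperoxia (95% O2) comprised IA01 and IA04, for which no vehicle is named, and IA06 and IA12, which had the ethanol vehicle. Normoxia (21% O2) comprised IA07 and IA13 with no vehicle named, and IA08 and IA15 with vehicle. Each exposure thus had 4 libraries in 2 groups of 2, although the protocol text common to all labels speaks only of ATRA or vehicle. Per the labels, a pretreatment of 24 hours preceded an exposure of 72 hours, after which RNA was taken. The 6 libraries with 1e-05 mM ATRA, 3 at each exposure, entered only the last comparison, 1 alternative fit of the main comparison and values given as with ATRA. Nothing in the labels says that the libraries came from separate cultures, so the p-values measure the spread between these samples, which may be technical.

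High oxygen raises the production of superoxide and hydrogen peroxide in lung epithelium. Cells meet these with NRF2, a transcription factor that turns on antioxidant enzymes, and with p53, which after DNA damage raises an inhibitor of cyclin-dependent kinases, CDKN1A, and keeps cells from dividing. Genes of the late cell cycle are held down in arrested cells by the DREAM complex, which reaches many of their promoters through a CHR element. NF-kB, the integrated stress response, heat shock factor and the sterol-sensing SREBP factors are the other stress and nutrient circuits taken up here.

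The deposited counts per gene summed to between 2843227 and 5516571 per library, and 3 counts corresponded to 0.528 to 1.05 CPM. Levels are given as CPM, a gene's counts per 1e6 counts of its library after edgeR's TMM factors are applied to the library total, and such floors and zeros cover counting error only. Means are followed by the SD over the 4 libraries of an exposure. All 10 epithelial and A549 markers passed the filter on low counts and 5 were called lower in hyperoxia, with a summed level of 10900 to 12800 CPM in hyperoxia and 17500 to 19800 CPM in normoxia. SFTPA1, SFTPA2, SFTPC and SFTPD, the surfactant proteins that define alveolar type II cells, had 0 counts in all 8 libraries, so the libraries did not carry that part of the alveolar label. Of the other type II markers only ABCA3, a lipid transporter of lamellar bodies, was tested, and it was called higher, and the summed type II level was 120 to 158 CPM in hyperoxia and 50.4 to 78.9 CPM in normoxia. Of 3 type I markers tested, CAV1, caveolin, was called higher and 0 were called lower. AGER, another of the 3, was not called, and it was lower in every alternative fit that tested it. The summed type I level was 389 to 470 CPM in hyperoxia and 273 to 321 CPM in normoxia. PDPN, HOPX and AQP5 of type I cells, COL1A2 and DCN of fibroblasts, VWF and TEK of endothelium, and CD3E and HBB of blood cells were also at 0 in all 8. The summed fibroblast markers lay between 0 and 6.96 CPM in hyperoxia and between 14 and 21.0 CPM in normoxia, endothelial markers did not pass 3.03 CPM, and the haematopoietic list, in which CD68 was called higher, lay at 61.3 to 102 CPM in hyperoxia and 20.5 to 28.0 CPM in normoxia.

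1 library stood apart. IA01 (hyperoxia, no vehicle named, replicate 1) had 4910396 counts, yet only 12657 genes had a count in it against 17661 to 20108 in the other 7. Of the 14782 genes tested, 17.9% had 0 counts in IA01 and 0.203% to 1.37% in the others. Among genes with a mean of 5 to 20 CPM in the other 7 libraries, 21.5% were at 0 in IA01 and at most 0.0995% in any other. IA01 was more than 1 log2 unit below the mean of the other 3 hyperoxia libraries for 4462 genes (30.2%) and more than 1 unit above it for 1520 genes (10.3%). The first principal component of log2 CPM, with 63.2% of the variance, separated IA01 from the other 7 and the second, with 20.5%, separated the oxygen exposures. Without IA01 the first component separated the exposures and held 57.7%. The part of these zeros in the results was not tested. The counts of each gene list are given with and without IA01, as are most, but not all, named genes whose call it changed. The 150 genes called with 8 libraries whose values are given were all called in the same direction without it.

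**Figure D1:**
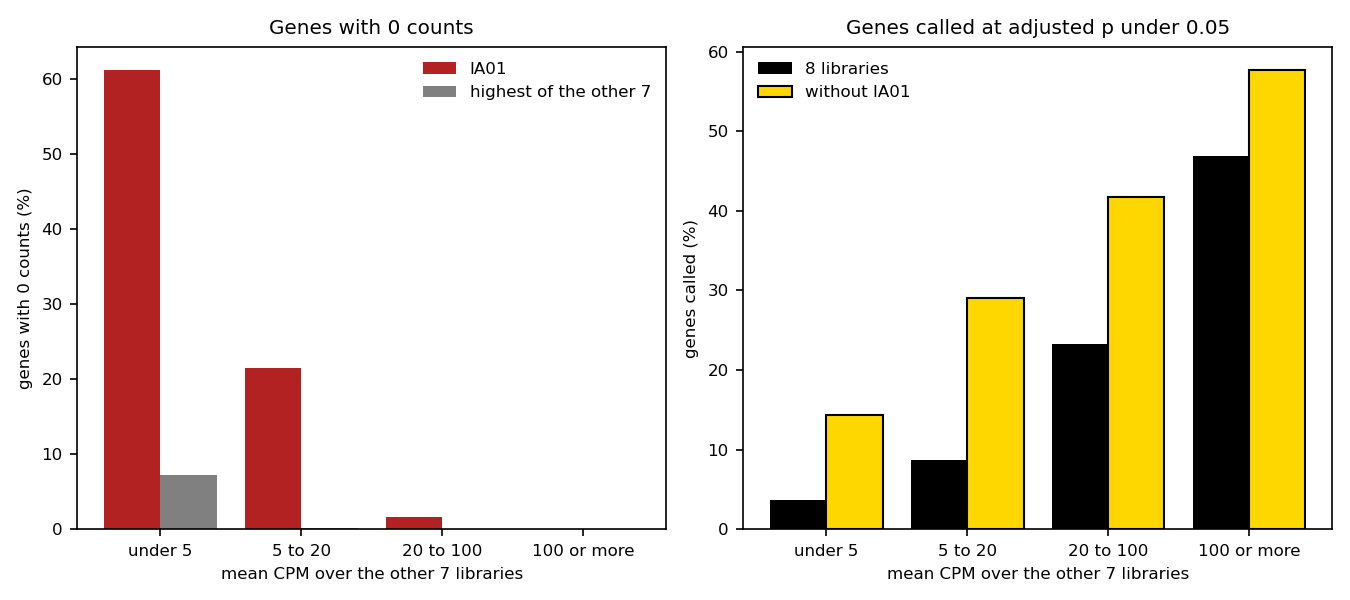
The left panel shows the share of tested genes with 0 counts (vertical axis, %) in IA01 (red) and in whichever of the other 7 libraries had most (grey), by the gene's mean CPM over those 7 (horizontal axis). The right panel shows the share of the same genes called at an adjusted p under 0.05 with all 8 libraries (black) and without IA01 (yellow): for genes under 5 CPM it was 3.65% and 14.3%, and for genes at 100 CPM or more it was 46.9% and 57.7%.

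With 8 libraries and vehicle as a covariate, 2789 of 14782 genes tested differed between hyperoxia and normoxia at an adjusted p under 0.05 (18.9%), of which 1435 were higher in hyperoxia (9.71%) and 1354 lower (9.16%). A change of 2-fold or more was called for 620 genes that were higher (4.19%) and 580 that were lower (3.92%). The 4 values of hyperoxia and the 4 of normoxia did not overlap for 2088 genes that were higher (14.1%) and 2414 that were lower (16.3%). Without IA01, 5286 of 15494 genes were called (34.1%), 2658 higher (17.2%) and 2628 lower (17.0%). Of the 2789 genes called with 8 libraries, 2781 were called without IA01 with the same sign, which is 99.7% of the first list and 52.6% of the second. Leaving out another library instead, with IA01 kept, gave 2565 calls without IA04, 1790 without IA06, 1991 without IA07 and 1728 without IA08. It gave 1666 without IA12, 1698 without IA13 and 1863 without IA15. The median log2 fold change over all genes was -0.05 with 8 libraries and -0.01 without IA01. Gene lists below are read against these shares, and their medians against this median. In bulk RNA, fewer cells of a kind and less RNA per cell cannot be told apart.

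**Figure D2:**
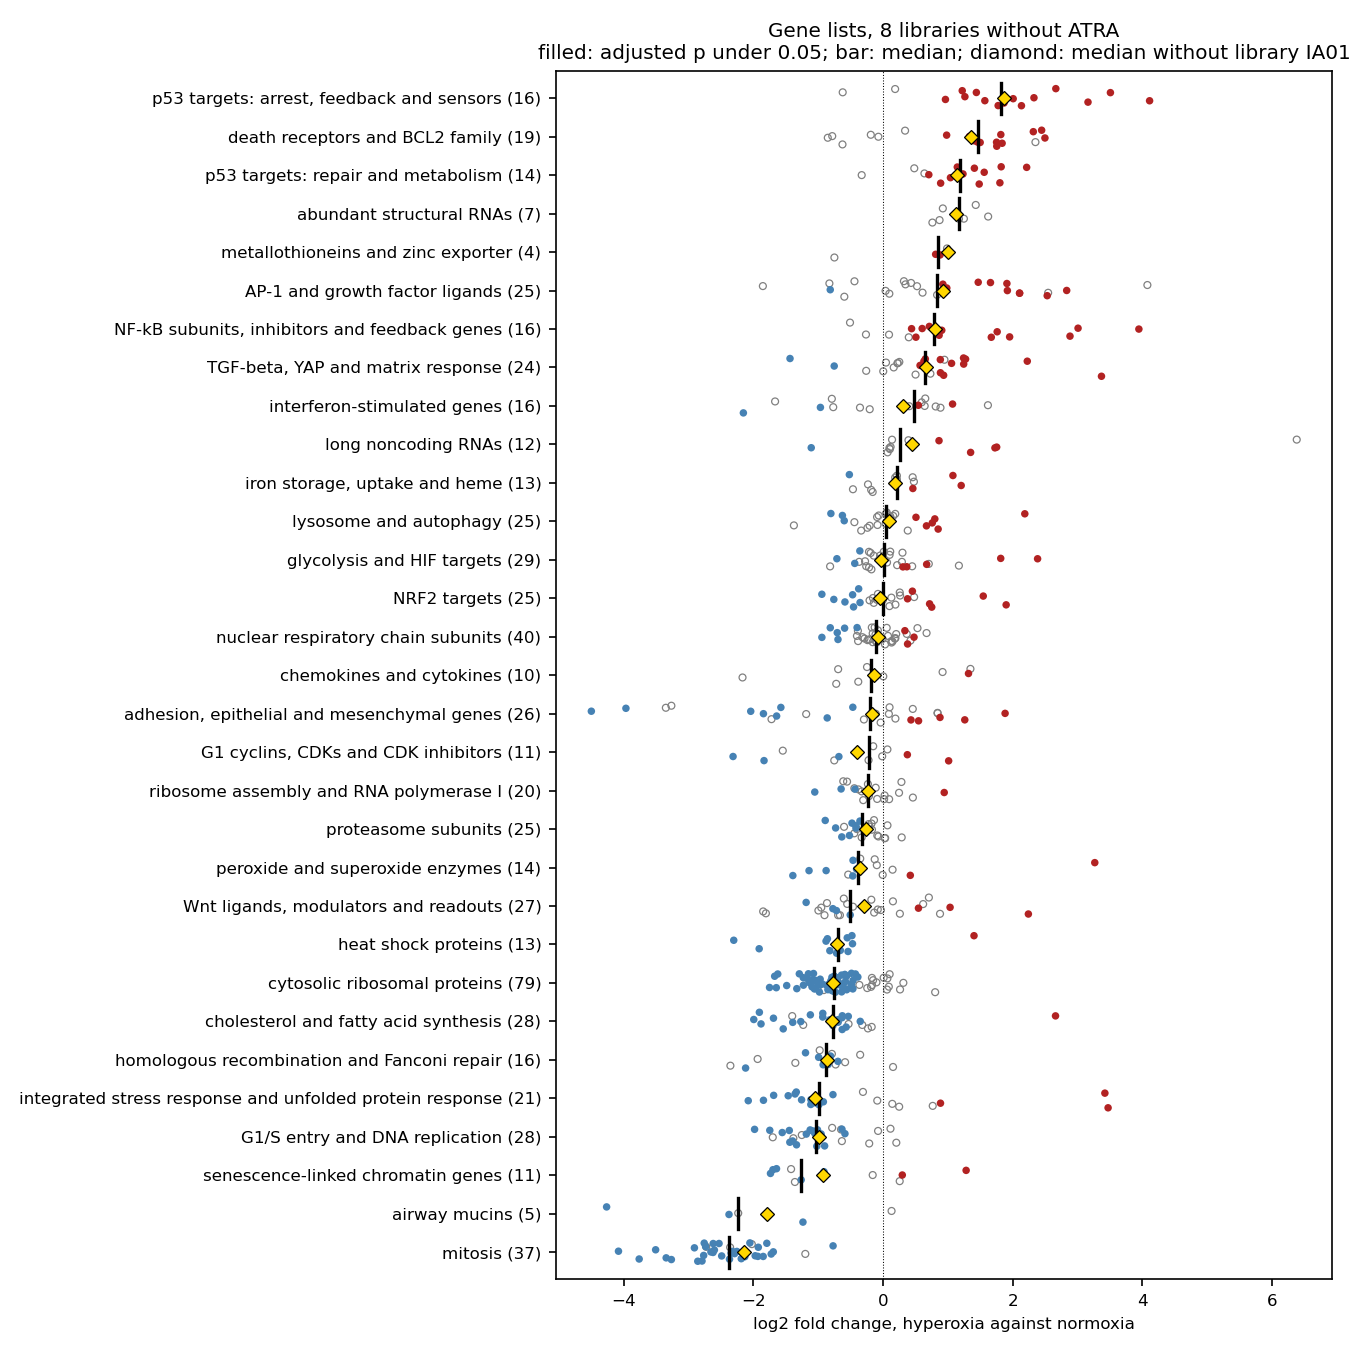
Each point is 1 gene of a list (rows, with the number tested in brackets), placed by its log2 fold change in hyperoxia against normoxia over 8 libraries (horizontal axis); filled points passed an adjusted p of 0.05, red higher and blue lower. The black bar is the list's median and the yellow diamond its median without IA01: the p53, death receptor and NF-kB lists lie to the right, and mitosis lies farthest to the left at -2.37.

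The p53 targets that arrest the cycle or restrain p53 itself were higher in hyperoxia. Of 16 genes in that list, all tested, 14 were called higher and 0 lower against 9.71% and 9.16% of all genes, with a median log2 fold change of 1.82, and without IA01 14 were higher and 1 lower. CDKN1A, which encodes the CDK inhibitor p21 and lies on chromosome 6 from 36676463 to 36687332, had 1018, 1144, 1009 and 1064 CPM in IA01, IA04, IA06 and IA12, the order used for hyperoxia throughout. In IA07, IA13, IA08 and IA15, the order used for normoxia, it had 68.7, 99.7, 96.7 and 108 CPM. The groups were far apart in every library, and the difference was 11.4-fold (log2 fold change 3.51, SE 0.143, adjusted p = 2.8e-06, and 3.51 without IA01). GADD45A, a growth arrest gene on chromosome 1 from 67685201 to 67688334, gave 136, 194, 237 and 228 CPM in hyperoxia and 14.8, 11.3, 7.01 and 11.1 CPM in normoxia. It was lowest among hyperoxia libraries in IA01 but still above every normoxia library (log2 fold change 4.11, SE 0.249, adjusted p = 1.06e-05, and 4.27 without IA01). MDM2, the ubiquitin ligase that degrades p53 (on chromosome 12 from 68808172 to 68850686), stood at 974, 858, 979 and 905 CPM in hyperoxia against 169, 148, 126 and 143 CPM in normoxia. The groups did not overlap (log2 fold change 2.67, SE 0.106, adjusted p = 2.8e-06, and 2.66 without IA01), and a gene named CPM that overlaps MDM2 held 15% as many counts. BTG2, an antiproliferative gene, rose from 10.6 ± 1.93 CPM to 94.6 ± 14.9 CPM (log2 fold change 3.16, SE 0.157, adjusted p = 4.88e-06, and 3.08 without IA01). PHLDA3, an inhibitor of AKT, rose by a log2 value of 2.33 (SE 0.119), the stress cytokine GDF15 by 2.01 (SE 0.152), the kinase PLK2 by 1.87 (SE 0.0885) and SESN2, a sestrin that restrains mTORC1, by 1.57 (SE 0.236). CCNG1, cyclin G1, was not called (log2 fold change 0.19, adjusted p = 0.377).

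Of 14 p53 targets in repair and metabolism, 11 were called higher and 0 lower, with a median of 1.19, and without IA01 13 were higher and 1 lower. FDXR, ferredoxin reductase, rose 4.65-fold, and DDB2 and XPC, which recognise helix-distorting DNA lesions, rose by log2 values of 1.56 (SE 0.107) and 0.89 (SE 0.208). XPC had 67.6, 144, 128 and 131 CPM in hyperoxia and 65.8, 57.2, 65.9 and 63.1 CPM in normoxia, so that IA01 lay just above the normoxia range and the other 3 far above it. Without IA01 its log2 fold change was 1.1 (adjusted p = 3.07e-07).

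Death receptors and BCL2 family genes followed, with 12 of 19 tested members called higher, 0 lower and a median of 1.46, and without IA01 14 were higher and 1 lower. FAS, the receptor for FAS ligand (on chromosome 10 from 88964050 to 89017059), had 134, 76.1, 68.5 and 69.2 CPM in hyperoxia and 18.7, 9.41, 14 and 17.8 CPM in normoxia. IA01 was the highest of all 8, the groups did not overlap, and the log2 fold change was 2.50 with it and 2.22 without it (adjusted p = 0.000404 and 1.63e-08). ACTA2, which overlaps FAS, held 54.4% as many counts. The TRAIL receptor TNFRSF10B rose from 164 ± 16.6 CPM to 554 ± 34.9 CPM, and the pro-apoptotic BAX from 110.3 ± 23.4 CPM to 292 ± 24.2 CPM. BBC3, which encodes PUMA, rose 5.46-fold from 4.55 ± 1.45 CPM to 24.4 ± 1.28 CPM (log2 fold change 2.45, SE 0.303, adjusted p = 0.000607, and 2.45 without IA01). The anti-apoptotic BCL2L1 rose as well, 1.98-fold (log2 fold change 0.98, SE 0.0906, adjusted p = 0.000109, and 0.99 without IA01).

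Mitosis genes were lower in hyperoxia, with the lowest median of all the lists. All 37 members were tested and 33 were called lower and 0 higher, with a median log2 fold change of -2.37, and all 37 were called lower without IA01 (median -2.14, beside 17.0% of all genes called lower). In 37 of 37 the 4 hyperoxia values lay below the 4 normoxia values, a pattern shown by 16.3% of all genes in that direction. PLK1, the polo-like kinase that drives entry into mitosis (on chromosome 16 from 23678889 to 23690367), had 0, 18.3, 20.6 and 10.9 CPM in hyperoxia and 193, 193, 224 and 171 CPM in normoxia. It was lowest in IA01, where 3 counts would have been 0.595 CPM, and it was 16.9-fold lower in hyperoxia (log2 fold change -4.08, SE 0.628, adjusted p = 0.00194, and -3.58 without IA01). CCNB1, cyclin B1 (on chromosome 5 from 69167150 to 69178245), gave 3.77, 15.4, 17.9 and 9.33 CPM in hyperoxia and 156, 134, 172 and 138 CPM in normoxia. Its log2 fold change was -3.76 (SE 0.356, adjusted p = 0.000129) and without IA01 -3.44, and the groups were far apart in every library. MKI67, the proliferation antigen Ki-67 (on chromosome 10 from 128096659 to 128126423), had 88.4, 175, 167 and 115 CPM in hyperoxia and 1228, 748, 807 and 674 CPM in normoxia, the highest being IA07 (log2 fold change -2.66, SE 0.259, adjusted p = 0.000154, and -2.44 without IA01). The spindle kinase AURKA fell from 132 ± 9.92 CPM to 18.4 ± 4.96 CPM, topoisomerase TOP2A from 513 ± 113 CPM to 116 ± 14.9 CPM, and the spindle protein ASPM from 145 ± 33.6 CPM to 20.8 ± 2.62 CPM. PRC1 and BIRC5, which act at the midzone in cytokinesis, fell by 2.32 and 2.06 on the log2 scale. FOXM1, a transcription factor of the late cell cycle, fell from 218 ± 11.6 CPM to 67.3 ± 4.20 CPM (log2 fold change -1.69, SE 0.0971, adjusted p = 8.6e-06, and -1.72 without IA01), and ITFG2, which overlaps it, held 30.6% as many counts.

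The 4 mitosis genes not called with 8 libraries were CENPA, ESPL1, NDC80 and CDC25C, and each had 0 counts in IA01. ESPL1, the separase that frees sister chromatids, had 0, 27.1, 21.4 and 23.2 CPM in hyperoxia and 54.1, 69.0, 85.5 and 70.5 CPM in normoxia. With IA01 its adjusted p was 0.0845 and without it 4.01e-07, at log2 fold changes of -2.03 and -1.56. CENPA, the centromeric histone, moved from -2.36 (adjusted p = 0.0742) to -1.88 (adjusted p = 4.98e-05), and NDC80, a kinetochore protein, from -2.73 (adjusted p = 0.0528) to -2.16 (adjusted p = 0.00022). CDC25C shares its span with FAM53C, which held 635% as many counts, so its values are uncertain. PIF1, a DNA helicase outside the list, had 0 counts in all 4 hyperoxia libraries and 9.35, 12.6, 6.66 and 8.73 CPM in normoxia. Against the highest hyperoxia floor of 0.980 CPM it was at least 9.51-fold lower.

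**Figure D3:**
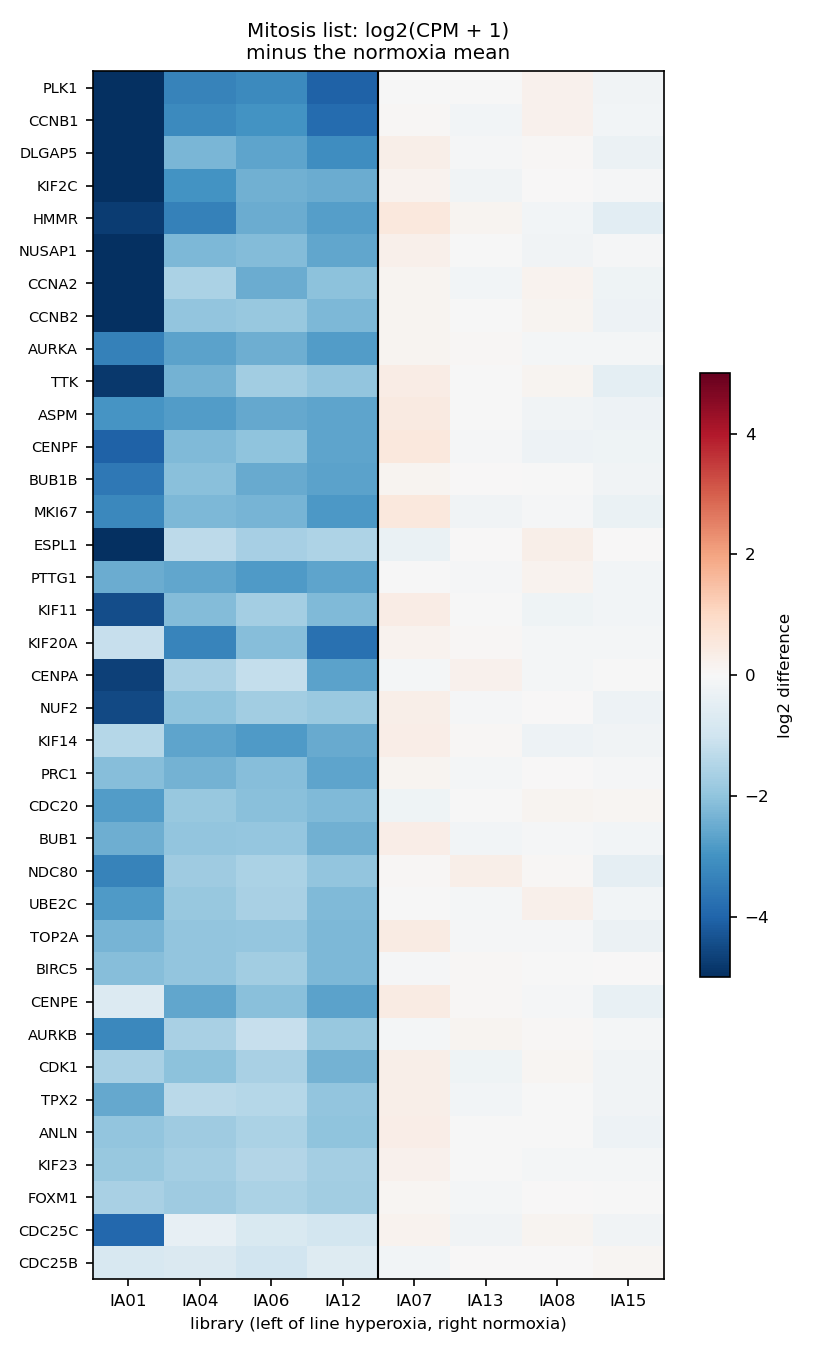
Colours give log2(CPM + 1) minus the gene's mean over the 4 normoxia libraries for the 37 mitosis genes (rows) in 8 libraries (columns, hyperoxia left of the line), with the scale ending at 5 units either way. In all 37 rows the 4 hyperoxia values lie below the 4 normoxia values, and the IA01 column is at the dark end of the scale in several rows, PLK1 and CCNB1 among them.

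The promoters of the mitosis list were read from RefSeq (GRCh38.p14, 250 bases before to 50 after the annotated start), where 31 of 37 members had an entry. They were searched on both strands for the CHR, written TTTGAA or TTTAAA (the second reads the same on both strands), and for a CCAAT box. The CHR letters were in 26 of 31 windows (83.9%), in 24.3% of 27305 promoters of all genes and in 15.8% of the 10856 promoters of genes tested. The CCAAT letters were in 23 of 31 (74.2%), in 35.7% of all promoters and in 36.3% of those tested, and both were in 20 of 31 (64.5%), against 9.49% and 6.37%. In the replication list 4 of 24 windows held the CHR letters (16.7%) and 15 of 24 the CCAAT letters (62.5%). The windows of PLK1 and CCNB1, the mitosis genes with the lowest fitted log2 fold changes, are printed 5′ to 3′ with CHR and CCAAT letters in capitals. A match of letters is not a shown binding site.
PLK1, chr16:23678639-23678938, plus strand: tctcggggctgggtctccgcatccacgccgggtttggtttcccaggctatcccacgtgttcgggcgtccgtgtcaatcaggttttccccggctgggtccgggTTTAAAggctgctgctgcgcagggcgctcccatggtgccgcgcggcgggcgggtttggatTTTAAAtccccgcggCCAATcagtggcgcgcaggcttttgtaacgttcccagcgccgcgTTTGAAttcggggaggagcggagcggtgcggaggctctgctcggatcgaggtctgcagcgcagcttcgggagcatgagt
CCNB1, chr5:69166900-69167199, plus strand: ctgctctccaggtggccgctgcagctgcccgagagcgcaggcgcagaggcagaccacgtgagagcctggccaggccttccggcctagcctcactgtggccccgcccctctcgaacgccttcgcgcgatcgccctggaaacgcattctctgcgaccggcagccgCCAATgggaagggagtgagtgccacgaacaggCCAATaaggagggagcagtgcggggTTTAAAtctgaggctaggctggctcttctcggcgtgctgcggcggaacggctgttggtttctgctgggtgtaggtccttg
The PLK1 window holds 3 CHR matches and 1 CCAAT match, and the CCNB1 window holds 1 CHR and 2 CCAAT matches.

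DNA replication genes were lower by a smaller step. Of 28 tested, 18 were called lower and 0 higher, with a median of -1.04, and without IA01 23 were lower and 0 higher with a median of -0.99. MCM5, a subunit of the replicative helicase (on chromosome 22 from 35400140 to 35455031), had 50.9, 61.4, 73.8 and 49.0 CPM in hyperoxia and 146, 177, 186 and 179 CPM in normoxia, with no overlap (log2 fold change -1.56, SE 0.147, adjusted p = 0.000126, and -1.51 without IA01). MCM7 of the same helicase fell from 278 ± 24.3 CPM to 106 ± 12.3 CPM, thymidine kinase TK1 from 141 ± 14.9 CPM to 52.4 ± 12.4 CPM, and the licensing factor CDC6 from 88.9 ± 13.9 CPM to 44.2 ± 7.75 CPM. RRM2, which makes deoxynucleotides, was 48.6 CPM in IA01 and 85.2 to 130.5 CPM in the other hyperoxia libraries, and its log2 fold change was -1.05 with IA01 and -0.82 without. PCNA, the sliding clamp and also a p53 target, was not called: it had 106, 187, 182 and 149.8 CPM in hyperoxia and 162, 198, 193 and 169 CPM in normoxia, groups that overlap, at a log2 fold change of -0.21 (adjusted p = 0.449). Its antisense gene PCNA-AS1 held 94.5% as many counts. TYMS, thymidylate synthase, was not called either (0.11, adjusted p = 0.722), with 153 CPM in IA01 and 88.9 to 95.5 CPM in the other 3.

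Among 11 G1 cyclins, CDKs and inhibitors, 2 were higher and 3 lower, and without IA01 2 and 5. CDK6, a kinase that opens G1, rose from 84.0 ± 10.5 CPM to 168 ± 12.2 CPM and cyclin D1 (CCND1) from 390 ± 17.7 CPM to 506 ± 57.1 CPM. Cyclin D3 (CCND3) went the other way, with 82.1, 119.9, 85.3 and 88.2 CPM in hyperoxia against 261, 386, 335 and 354 CPM in normoxia (log2 fold change -1.84, SE 0.162, adjusted p = 8.48e-05, and -1.76 without IA01). Of 16 genes of homologous recombination and Fanconi repair, 7 were called lower and 0 higher (median -0.89), and without IA01 13 were lower and 0 higher. FANCD2, the ubiquitinated hub of the Fanconi pathway, fell 4.35-fold, BRCA1 fell 2.29-fold and BRCA2 fell 1.99-fold. The helicase gene BLM had 0, 8.50, 10.7 and 11.8 CPM in hyperoxia against 43.8, 34.3, 36.4 and 29.2 CPM in normoxia, and was not called with 8 libraries (-2.36, adjusted p = 0.0583) but was without IA01 (-1.75, adjusted p = 2.15e-06). Of 11 chromatin genes linked to senescence, 5 were lower and 2 higher, and without IA01 7 and 2. LMNB1, lamin B1 of the nuclear envelope, had 12.1, 23.2, 22.2 and 21.3 CPM in hyperoxia and 80.8, 62.3, 58.5 and 59.7 CPM in normoxia (log2 fold change -1.74, SE 0.236, adjusted p = 0.000976, and -1.51 without IA01). H2AFZ, histone H2A.Z, fell from 182 ± 4.94 CPM to 55.8 ± 4.49 CPM and HMGB1 from 136 ± 23.4 CPM to 56.4 ± 9.93 CPM, while HMGA2, an architectural chromatin protein, rose from 29.9 ± 5.65 CPM to 73.9 ± 19.7 CPM. EZH2, the Polycomb methyltransferase, was not called with 8 libraries (-1.36, adjusted p = 0.0621) but was called lower without IA01 (-1.0, adjusted p = 0.000294). BLM and EZH2 were also called in some fits that kept IA01, DESeq2 among them.

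**Figure D4:**
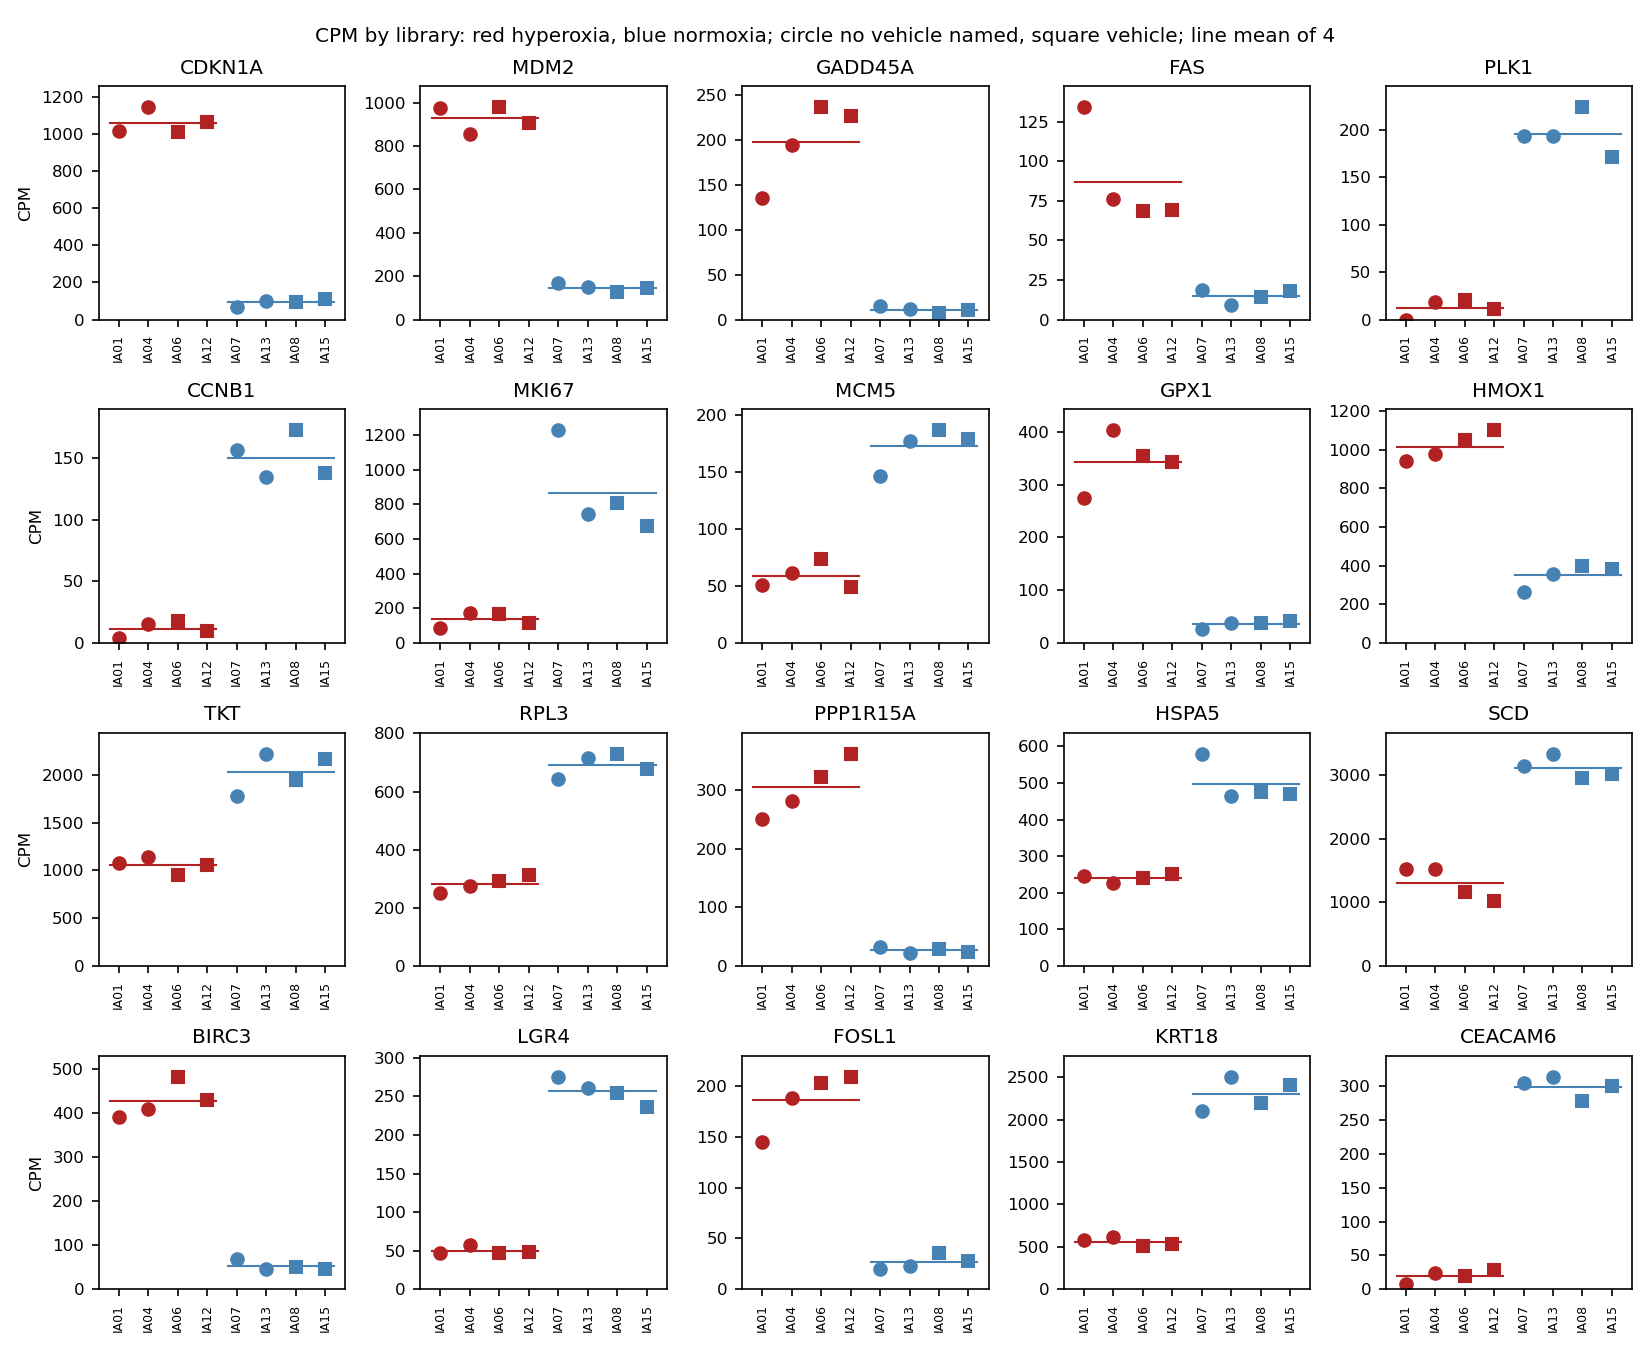
CPM (vertical axes, from 0, each panel with its own scale) of 20 genes in the 8 libraries (horizontal axis), hyperoxia red and normoxia blue, circles for libraries with no vehicle named and squares for vehicle, with a line at the mean of 4. The genes were picked from those called, and in all 20 panels the red and blue values do not overlap. Over all genes tested this held for 30.5%. IA01 lies apart from the other red points for FAS (134 CPM against 68.5 to 76.1) and at 0 for PLK1.

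The NRF2 list was divided. Of 25 genes tested, 6 were called higher and 7 lower, and its median was near 0. Without IA01 7 were higher and 9 lower. HMOX1, heme oxygenase (on chromosome 22 from 35381096 to 35394207), had 940.2, 979, 1049 and 1100 CPM in hyperoxia and 264, 355, 399 and 382 CPM in normoxia, with no overlap (log2 fold change 1.55, SE 0.106, adjusted p = 2.25e-05, and 1.54 without IA01). OSGIN1, an oxidative stress inhibitor of growth, rose 3.73-fold (log2 fold change 1.90, SE 0.175, adjusted p = 0.000108, and 1.77 without IA01). Thioredoxin reductase TXNRD1 rose from 1569 ± 98.0 CPM to 2641 ± 164 CPM, sulfiredoxin SRXN1 from 378 ± 10.9 CPM to 624 ± 90.3 CPM, and the cystine carrier SLC7A11 from 448 ± 37.1 CPM to 614 ± 47.8 CPM. Members of the pentose phosphate pathway were among the 7 that fell. TKT, its transketolase, had 1075, 1138, 952 and 1059 CPM in hyperoxia and 1779, 2222, 1948 and 2172 CPM in normoxia (log2 fold change -0.94, SE 0.0989, adjusted p = 0.000232, and -0.94 without IA01). PGD, which makes NADPH there, fell from 1636 ± 69.7 CPM to 967 ± 78.2 CPM. NQO1, a quinone reductase often used as an NRF2 readout, was abundant in both groups, 1419 ± 70.0 CPM and 1244 ± 73.0 CPM, and was not called (adjusted p = 0.134).

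Enzymes that remove peroxide and superoxide were 2 higher and 6 lower of 14 tested, with IA01 and without it. GPX1, the cytosolic glutathione peroxidase (on chromosome 3 from 49357176 to 49358353), had 275, 403, 354 and 342 CPM in hyperoxia and 25.9, 37.6, 37.5 and 42.2 CPM in normoxia. Every hyperoxia library was far above the highest normoxia library (log2 fold change 3.27, SE 0.17, adjusted p = 5.18e-06, and 3.35 without IA01), and it was the only member of this list past 2-fold that was higher. GPX2, its epithelial relative, fell from 734 ± 146 CPM to 335 ± 48.6 CPM, and CHURC1-FNTB, which overlaps GPX2, held 10% as many counts. The peroxiredoxins PRDX1 and PRDX4 fell by 0.46 and 1.39 on the log2 scale. PRDX4 had 10.1 CPM in IA01 and 28.7 to 44.1 CPM in the other hyperoxia libraries, and its log2 fold change without IA01 was -1.06. SOD1, the cytosolic superoxide dismutase, fell by 0.47 and SOD2, the mitochondrial one, was higher by 0.42 (adjusted p = 0.0306 and 0.0353), but ACAT2, which overlaps SOD2, held 86.2% as many counts. Catalase (CAT) and GPX4 were not called (adjusted p = 0.151 and 0.527).

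Both ferritin chains, which store iron, rose. FTH1 had 8599, 9090, 8361 and 9401 CPM in hyperoxia and 3608, 3890, 3918 and 3953 CPM in normoxia (log2 fold change 1.21, SE 0.0757, adjusted p = 1.35e-05, and 1.22 without IA01), and FTL rose from 5649 ± 746 CPM to 11940 ± 949 CPM (log2 fold change 1.08, SE 0.109, adjusted p = 0.000191, and 1.07 without IA01). Both have processed pseudogenes, so their counts may be split. The transferrin receptor TFRC, which imports iron, rose from 258 ± 21.7 CPM to 356 ± 32.1 CPM, and IREB2, which represses ferritin translation, fell from 144 ± 17.1 CPM to 99.8 ± 14 CPM. In the whole iron and heme list 3 of 13 were higher and 1 lower, and without IA01 4 and 1. Metallothionein MT2A, a zinc and copper buffer, had 40.4, 76.8, 93.9 and 76.2 CPM in hyperoxia and 37.8, 32.3, 46.6 and 37.1 CPM in normoxia. IA01 lay within the normoxia range, and the log2 fold change was 0.88 with it and 1.07 without it (adjusted p = 0.019 and 5.22e-06). The zinc exporter SLC30A1 rose from 68.6 ± 4.33 CPM to 122 ± 32.4 CPM. In the list of metallothioneins and this exporter 2 of 4 tested were higher and 0 lower, and without IA01 2 of 3.

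Glycolysis and HIF targets had 5 of 29 members higher (17.2%) and 3 lower (10.3%), against 9.71% and 9.16% of all genes, with a median of 0.01. Without IA01 7 were higher and 5 lower. The 5 included ADM, the vasodilator adrenomedullin, which rose from 28.1 ± 2.97 CPM to 147 ± 14.1 CPM (log2 fold change 2.39, SE 0.12, adjusted p = 4.88e-06, and 2.40 without IA01), and PFKFB4, a regulator of glycolytic flux, which rose from 6.39 ± 1.83 CPM to 22.0 ± 4.67 CPM. EPAS1 (HIF-2α) was higher by 0.67 and HIF1A lower by 0.36 on the log2 scale, and the glucose carrier SLC2A1 was not called (adjusted p = 0.429). Of 40 nuclear respiratory chain and citrate cycle genes, 3 were higher and 6 lower, none by 2-fold, and without IA01 4 and 9. COX4I1 of complex IV fell from 175 ± 10.3 CPM to 91.6 ± 15.2 CPM and ATP5F1A of ATP synthase from 276 ± 15.7 CPM to 169 ± 9.95 CPM, and SDHC of complex II rose from 51.4 ± 5.25 CPM to 71.7 ± 8.02 CPM.

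Most cytosolic ribosomal protein genes were lower. Of 79 tested, 63 were called lower and 0 higher, with a median log2 fold change of -0.75, and 21 of them fell by 2-fold or more. Without IA01 66 were lower and 2 higher. RPL3 (on chromosome 22 from 39312882 to 39319623) had 251, 276, 292 and 314 CPM in hyperoxia and 645, 717, 730.2 and 677 CPM in normoxia (log2 fold change -1.29, SE 0.0872, adjusted p = 2.14e-05, and -1.25 without IA01). RPL10A fell from 266 ± 15.8 CPM to 78.8 ± 10.7 CPM and RPS7 from 504 ± 39.8 CPM to 159.7 ± 33.8 CPM. EEF1A1, the elongation factor that brings tRNA to the ribosome, gave 767, 764, 875 and 939.5 CPM in hyperoxia and 3175, 2869, 3498 and 3061 CPM in normoxia (log2 fold change -1.92, SE 0.085, adjusted p = 2.87e-06, and -1.90 without IA01). RPLP0, a stalk protein, was not called, with 965, 929.7, 929 and 982 CPM in hyperoxia and 814, 908, 947 and 879 CPM in normoxia (adjusted p = 0.42). Many of these genes have processed pseudogenes that share reads with them, so their single values are uncertain. Of 20 ribosome assembly and RNA polymerase I genes, 3 were lower and 1 was higher, the initiation factor RRN3, which PDXDC1 overlaps with 125% as many counts, and without IA01 4 were lower and 3 higher. The methyltransferase fibrillarin (FBL) fell from 336 ± 18.0 CPM to 164 ± 32.1 CPM and UBTF, the factor that opens ribosomal DNA, fell from 138 ± 10.2 CPM to 88.5 ± 9.88 CPM.

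In the integrated stress and unfolded protein responses, 3 of 21 genes were higher and 13 lower, with a median of -0.99, and without IA01 3 and 14. The 3 were ATF4, ATF3 and PPP1R15A. PPP1R15A, which encodes GADD34 and reverses eIF2α phosphorylation (on chromosome 19 from 48872421 to 48876058), had 251, 281, 323 and 362 CPM in hyperoxia and 32.1, 22.7, 29.4 and 24.4 CPM in normoxia (log2 fold change 3.47, SE 0.153, adjusted p = 2.87e-06, and 3.55 without IA01). ATF3, a stress-induced bZIP factor, had 26.6, 43.1, 35.6 and 34.5 CPM in hyperoxia and 2.34, 4.59, 2.80 and 3.21 CPM in normoxia (log2 fold change 3.42, SE 0.313, adjusted p = 0.000104, and 3.58 without IA01). ATF4, the bZIP factor whose translation rises in this response, went from 270.1 ± 12.1 CPM to 499.5 ± 15.3 CPM (log2 fold change 0.89, SE 0.0769, adjusted p = 7.74e-05, and 0.89 without IA01). Amino acid synthesis genes that ATF4 is known to activate were among the 13 that were lower. PHGDH, the first enzyme of serine synthesis, had 22.8, 24.2, 11.5 and 11.3 CPM in hyperoxia and 61.9, 65.7, 89.0 and 65.6 CPM in normoxia (log2 fold change -2.08, SE 0.274, adjusted p = 0.000834, and -2.20 without IA01). ASNS, asparagine synthetase, had 64.4, 25.5, 36.1 and 30.3 CPM in hyperoxia and 112, 82.8, 105 and 94.6 CPM in normoxia. IA01 was the highest of the hyperoxia libraries, and the log2 fold change was -1.34 with it and -1.71 without it (adjusted p = 0.00719 and 3.28e-08). CZ1P-ASNS, which overlaps ASNS, held 106% as many counts. PSAT1 of serine synthesis was 195 CPM in IA01, inside the normoxia range, and 65.0 to 78.8 CPM in the other 3, and its log2 fold change was -0.99 and -1.43 (adjusted p = 0.0455 and 1.94e-08). DDIT3, which encodes CHOP, was not called (0.14, adjusted p = 0.818).

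The letters of the ATF4 element, TGATGNAA, were in 4 of the 19 promoter windows this list had in RefSeq (21.1%, those of ATF3, CHAC1, ASNS and HERPUD1), against 3.67% of all promoters and 1.66% of those of tested genes. The ASNS window is shown because ASNS was lower while ATF4 was higher. It is taken at the start that RefSeq's promoter table gives, with the 1 match in capitals, and the match lies on the printed strand.
ASNS, chr7:97872359-97872658, minus strand: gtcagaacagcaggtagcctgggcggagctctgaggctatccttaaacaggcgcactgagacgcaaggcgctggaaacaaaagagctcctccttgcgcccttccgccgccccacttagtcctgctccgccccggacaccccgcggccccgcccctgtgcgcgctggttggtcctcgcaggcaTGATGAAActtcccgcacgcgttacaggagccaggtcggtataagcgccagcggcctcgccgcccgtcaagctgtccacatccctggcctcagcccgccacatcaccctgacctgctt

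Chaperones were lower. HSPA5 (BiP) of the endoplasmic reticulum had 246, 227, 240 and 250.4 CPM in hyperoxia and 579.8, 464, 474 and 469 CPM in normoxia (log2 fold change -1.04, SE 0.0977, adjusted p = 0.000122, and -1.04 without IA01), HSP90B1 fell from 602 ± 86.0 CPM to 251 ± 29.8 CPM, and the disulfide isomerase PDIA4 from 239 ± 22.1 CPM to 73.7 ± 11.4 CPM. Of 13 heat shock proteins tested, 12 were called lower and 1 higher, with a median of -0.70, and the counts were the same without IA01. HSPA1A had 5.75, 15.4, 12.6 and 15.8 CPM in hyperoxia and 63.5, 68.3, 53.3 and 57.0 CPM in normoxia (log2 fold change -2.30, SE 0.3, adjusted p = 0.000779, and -2.0 without IA01), and its near-identical copy HSPA1B 14.3, 18.9, 12.0 and 16.4 CPM and 50.2, 70.5, 54.0 and 57.0 CPM, so that reads may be divided between them. HSP90AA1 fell from 1799 ± 294 CPM to 1017 ± 108 CPM. The 1 that rose was HSPB8, a small heat shock protein that feeds chaperone-assisted autophagy, with 20.4, 37.6, 34.8 and 35.4 CPM in hyperoxia and 10.5, 15.4, 9.81 and 12.3 CPM in normoxia (log2 fold change 1.40, SE 0.28, adjusted p = 0.00763, and 1.6 without IA01). SQSTM1, the autophagy receptor p62 and also an NRF2 target, had 3868, 4499, 4758 and 5584 CPM in hyperoxia and 950.2, 976, 1148 and 1016 CPM in normoxia, with no overlap (log2 fold change 2.19, SE 0.0961, adjusted p = 2.87e-06, and 2.25 without IA01). In the lysosome and autophagy list as a whole 6 of 25 were higher and 3 lower, and without IA01 6 and 4. NPC1, the lysosomal cholesterol exporter, rose from 94.8 ± 7.92 CPM to 171 ± 27.8 CPM and the protease CTSL fell from 668 ± 96.3 CPM to 432 ± 37.3 CPM. Of 25 proteasome subunits, 9 were lower and 0 higher, none by 2-fold, without IA01 11 were lower and 1 higher, and PSMC3 fell from 133 ± 8.85 CPM to 71.3 ± 6.36 CPM.

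The list of cholesterol and fatty acid synthesis holds targets of SREBP and also the cholesterol exporter ABCA1. Of its 28 genes 21 were lower and 1 higher, with a median of -0.77, and without IA01 24 were lower and 1 higher. HMGCS1, which makes HMG-CoA for sterol synthesis, had 37.3, 45.1, 54.3 and 54.4 CPM in hyperoxia and 165, 143, 145 and 158 CPM in normoxia (log2 fold change -1.69, SE 0.133, adjusted p = 4.2e-05, and -1.59 without IA01). SCD, the stearoyl-CoA desaturase (on chromosome 10 from 100347233 to 100364826), gave 1527, 1519, 1165 and 1020 CPM in hyperoxia and 3144, 3336, 2953 and 3015 CPM in normoxia (log2 fold change -1.27, SE 0.0971, adjusted p = 3.83e-05, and -1.30 without IA01). Fatty acid synthase (FASN) fell from 914 ± 161 CPM to 588 ± 57.9 CPM. FDPS, farnesyl diphosphate synthase, fell from 127 ± 8.94 CPM to 34.7 ± 10.6 CPM, but RUSC1-AS1 overlaps it, held 88.1% as many counts and fell alongside it, from 113 ± 5.61 CPM to 29.6 ± 1.96 CPM. The 1 that rose was ABCA1, which exports cholesterol and is known as a target of liver X receptors, with 205, 233, 242 and 264 CPM in hyperoxia and 41.3, 34.3, 34.7 and 37.8 CPM in normoxia (log2 fold change 2.66, SE 0.118, adjusted p = 2.87e-06, and 2.72 without IA01).

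NF-kB subunits, inhibitors and feedback genes were higher in 12 of 16 cases and lower in 0, with a median of 0.79, and without IA01 13 were higher and 0 lower. BIRC3, the ubiquitin ligase cIAP2 (on chromosome 11 from 102317484 to 102339403), had 392, 408, 482 and 429 CPM in hyperoxia and 68.7, 46.3, 51.5 and 45.6 CPM in normoxia (log2 fold change 3.01, SE 0.153, adjusted p = 4.88e-06, and 3.06 without IA01). NFKB2, the p100 subunit, had 243, 229.7, 224 and 233 CPM in hyperoxia and 55.3, 54.1, 87.2 and 83.9 CPM in normoxia, where the vehicle libraries lay above the others (log2 fold change 1.76, SE 0.144, adjusted p = 5.59e-05, and 1.68 without IA01). RELA and NFKB1, the canonical subunits, rose by smaller steps of 0.87 (SE 0.112) and 0.71 (SE 0.17) on the log2 scale. The inhibitor NFKBIE rose from 7.86 ± 1.04 CPM to 31.1 ± 8.99 CPM. TNFAIP3, the feedback deubiquitinase A20, had 10.3, 24.2, 43.3 and 35.0 CPM in hyperoxia and 3.89, 2.90, 4.20 and 3.03 CPM in normoxia (log2 fold change 2.89, SE 0.407, adjusted p = 0.00119, and 3.20 without IA01). TRAF1, an adaptor, rose from 4.98 ± 2.08 CPM to 74.8 ± 9.82 CPM, but PHF19 overlaps it and held 164% as many counts. Of 10 chemokines and cytokines with enough counts to test, out of 23 listed, 1 was higher (10.0%) and 0 lower, against 9.71% and 9.16% of all genes. Without IA01 3 of 11 were higher and 1 lower. The 1 with 8 libraries was CSF1, the macrophage growth factor, at 142 ± 30.2 CPM against 58.4 ± 15.7 CPM, and CCL2 was not called with 8 libraries (0.92, adjusted p = 0.0917) but was without IA01 (0.57, adjusted p = 0.0309). Interferon-stimulated genes were 2 higher (12.5%) and 2 lower (12.5%) of 16, against 9.71% and 9.16% of all genes. Without IA01 these counts were the same. OAS1, an antiviral RNA sensor, fell from 67.9 ± 12.7 CPM to 15.3 ± 2.73 CPM.

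Growth factor and AP-1 genes were mostly higher where called, 10 of 25 with 1 lower (median 0.83), and without IA01 17 were higher and 3 lower. FOSL1, the AP-1 subunit FRA1 (on chromosome 11 from 65892049 to 65900545), had 145, 189, 203 and 209 CPM in hyperoxia and 20.1, 22.9, 35.7 and 27.4 CPM in normoxia (log2 fold change 2.83, SE 0.143, adjusted p = 4.88e-06, and 2.90 without IA01). JUN, its partner, rose from 20.7 ± 2.20 CPM to 121 ± 15.4 CPM (log2 fold change 2.53, SE 0.13, adjusted p = 4.88e-06, and 2.50 without IA01). EREG, epiregulin, a ligand of EGFR, rose from 84.8 ± 11.7 CPM to 366 ± 27.1 CPM and EGFR from 473 ± 47.0 CPM to 934 ± 63.2 CPM, while the related ligand AREG fell from 47.8 ± 9.93 CPM to 27.5 ± 6.61 CPM. EGR1 had 0, 6.54, 7.22 and 9.68 CPM in hyperoxia and at most 3 counts in each normoxia library, at least 5.58-fold higher against that floor, and was called without IA01 but not with it (adjusted p = 1.45e-05 and 0.0635).

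Among TGF-beta, YAP and matrix genes 12 of 24 were higher and 2 lower, with a median of 0.64, and without IA01 16 of 25 were higher and 2 lower. CCN1, a matricellular YAP target, had 184, 242, 228 and 218 CPM in hyperoxia and 38.5, 41.5, 52.9 and 54.9 CPM in normoxia (log2 fold change 2.23, SE 0.13, adjusted p = 9.24e-06, and 2.27 without IA01). SMAD6, an inhibitor of BMP signalling, fell from 105 ± 13.7 CPM to 39.1 ± 8.85 CPM and fibronectin (FN1) from 519 ± 89.9 CPM to 312 ± 70.4 CPM. Of 27 Wnt genes tested, 3 were higher (11.1%) and 4 lower (14.8%), not far from the 9.71% and 9.16% of all genes. Their median was -0.51, and without IA01 5 were higher and 8 lower. The corepressor TLE4 rose from 27.2 ± 3.09 CPM to 129.6 ± 20.8 CPM (log2 fold change 2.24, SE 0.155, adjusted p = 2.28e-05, and 2.33 without IA01) and RSPO3, which potentiates Wnt signals, from 125 ± 20.4 CPM to 256 ± 43.6 CPM, while the ligand WNT7B fell from 239.8 ± 29.0 CPM to 141 ± 31.4 CPM. LGR4, the receptor for R-spondins, was not on that list and had the smallest p of all genes that fell, with 47.4, 56.9, 47.4 and 47.7 CPM in hyperoxia and 275, 260.2, 255 and 236 CPM in normoxia (log2 fold change -2.37, SE 0.0985, adjusted p = 2.8e-06, and -2.31 without IA01).

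KRT18, KRT8, KRT19, CEACAM6 and CLDN2 were lower. Of 26 adhesion, epithelial and mesenchymal genes, 5 were higher and 8 lower, and without IA01 7 and 9 of 28. The keratins KRT7 and KRT80 were not called (log2 fold change 0.09 and -0.04, adjusted p = 0.607 and 0.889). KRT18, a keratin of simple epithelia (on chromosome 12 from 52948855 to 52952906), had 577, 618, 512 and 532 CPM in hyperoxia and 2102, 2501, 2192 and 2407 CPM in normoxia (log2 fold change -2.04, SE 0.0933, adjusted p = 3e-06, and -2.04 without IA01). Its partner KRT8 had 1201, 1430, 1144 and 1205 CPM and 3469, 4211, 3565 and 4275 CPM, and the spans of these neighbours overlap in the annotation. CEACAM6, an epithelial adhesion glycoprotein (on chromosome 19 from 41755530 to 41772211), had 7.53, 23.5, 19 and 28.2 CPM in hyperoxia and 305, 314, 279 and 299.8 CPM in normoxia, 15.7-fold lower (log2 fold change -3.97, SE 0.306, adjusted p = 3.94e-05, and -3.63 without IA01). CLDN2, a pore-forming claudin of tight junctions, was at 0, 1.63, 0.535 and 1.41 CPM in hyperoxia and 18.5, 23.6, 18.2 and 20.3 CPM in normoxia. CDH1, E-cadherin, had 46.2, 21.6, 9.36 and 11.8 CPM in hyperoxia and 68.9, 71.2, 42.4 and 54.0 CPM in normoxia. IA01 lay inside the normoxia range, and the log2 fold change was -1.58 with it and -1.98 without it (adjusted p = 0.00697 and 3.38e-08). KRT19 fell from 94.4 ± 2.96 CPM to 26.9 ± 8.23 CPM. CLDN1, a sealing claudin, rose from 100.1 ± 9.20 CPM to 240.5 ± 20.4 CPM and the collagen receptor ITGA2 from 70.8 ± 3.81 CPM to 266 ± 76.1 CPM. Vimentin (VIM), the mesenchymal filament protein, was called higher at 0.55 (adjusted p = 0.0124), with IA01 at 828 CPM inside the normoxia range and VIM-AS1 holding 69.2% as many counts. Of 5 mucins tested, 3 were lower and 0 higher, and without IA01 3 of 6 were lower. MUC5AC, the secreted airway mucin, had 44.6, 91.5, 82.1 and 97.5 CPM in hyperoxia and 502, 506, 307 and 347 CPM in normoxia (log2 fold change -2.38, SE 0.264, adjusted p = 0.000318, and -2.09 without IA01), and MUC5B fell from 269 ± 116 CPM to 112 ± 26.2 CPM.

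Outside the lists, the genes with the smallest p among those that rose included TIPARP and CYP1B1, both known targets of the aryl hydrocarbon receptor. TIPARP had 147, 159.5, 173 and 188 CPM in hyperoxia and 24.1, 27.0, 31.5 and 30.8 CPM in normoxia (log2 fold change 2.56, SE 0.106, adjusted p = 2.8e-06, and 2.58 without IA01). CYP1B1, a cytochrome P450, had 279.9, 293, 314 and 328 CPM in hyperoxia and 70.7, 86.4, 82.7 and 79.3 CPM in normoxia (log2 fold change 1.93, SE 0.0976, adjusted p = 4.88e-06, and 1.95 without IA01). PTGR1, a reductase of lipid aldehydes, rose from 268 ± 15.5 CPM to 868 ± 64.3 CPM. Among those that fell were THSD7A, at 7.14, 10.8, 10.4 and 11.3 CPM against 97.9, 88.3, 92.5 and 90.2 CPM, the phosphodiesterase PDE4D, from 306 ± 33.6 CPM to 105 ± 4.25 CPM, the nuclear import factor KPNA2, from 472 ± 28.2 CPM to 158 ± 11 CPM, and CBX5, the heterochromatin protein HP1α, from 549.7 ± 32.5 CPM to 218 ± 6.51 CPM. The fitted rise of KCNQ3, a potassium channel subunit, was among the 10 largest, with 8.92, 39.5, 51.1 and 41.4 CPM in hyperoxia and 0.779, 0.724, 0.350 and 1.96 CPM in normoxia. RGMA, which codes for a BMP co-receptor, had at most 1 count in each normoxia library and 1.39, 15.4, 14.2 and 12.0 CPM in hyperoxia, at least 10.2-fold higher. SULT2B1, a sterol sulfotransferase, went from 19.8 ± 5.01 CPM to 0.701 ± 0.661 CPM. Among 12 long noncoding RNAs 4 were higher and 1 lower (5 and 1 without IA01), with GAS5 at 134 ± 20.2 CPM against 40.4 ± 6.75 CPM, MEG3 at 43.5 ± 16.6 CPM against 13.1 ± 3.84 CPM, and SNHG5 falling from 75.0 ± 21.2 CPM to 36.3 ± 14.3 CPM. Of 7 abundant structural RNAs none was called with 8 libraries, and all 7 had positive log2 fold changes (median 1.17), and 4 of 8 were higher without IA01. RMRP, the RNA of RNase MRP, had 5734, 6885, 4723 and 3973 CPM in hyperoxia and 374, 3199, 2283 and 1945 CPM in normoxia, with IA07 far below the other 3 (adjusted p = 0.0813 with 8 libraries and 0.00572 without IA01).

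The sources used here do not say whether the counting kept the strand, so genes that overlap another cannot be told from it. Beside those given above, NUDCD2 held 28.7% as many counts as CCNG1, RHOBTB2 20.8% of TNFRSF10B, PRC1-AS1 30.1% of PRC1, ENOSF1 138% of TYMS and MMACHC 63.1% of PRDX1. UCN2 held 29.8% of PFKFB4, HIF1A-AS2 24.6% of HIF1A, RMC1 22.3% of NPC1, ATIC 44% of FN1, KRT18 55.7% of KRT8, ZBTB37 26.1% of GAS5, LOC112268252 16.4% of CEACAM6, SLC7A11-AS1 12.1% of SLC7A11, MIR3652 12.2% of HSP90B1, MRNIP 11.2% of SQSTM1, TIPARP-AS1 10.7% of TIPARP and IQCK 35.2% of GPRC5B.

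IGFBP5 and CBS were among the genes that moved most when IA01 was left out. IGFBP5, a binding protein of insulin-like growth factors, had 16.4, 0.327, 0.268 and 0.528 CPM in hyperoxia and 3.12, 4.83, 3.5 and 5.17 CPM in normoxia: IA01 stood above all normoxia libraries and the other 3 below them. It was not called with 8 libraries (adjusted p = 0.714) and was called lower without IA01 (adjusted p = 0.000969), at log2 fold changes of -0.82 and -3.35. CBS, cystathionine synthase, had at most 2 counts in each hyperoxia library and 2.53, 2.17, 1.05 and 4.45 CPM in normoxia, at least 2.6-fold lower, and the 2 counts were in IA01. Of the 2505 genes called only without IA01, 2445 had been tested with it, and among genes with 5 to 20 CPM the share called was 8.73% with IA01 and 29.1% without it.

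Whether the oxygen difference depended on the vehicle was tested by an interaction in the same 8 libraries. By edgeR, 0 of 14782 genes passed (0.0%), with 442 at an unadjusted p under 0.05 (2.99%), and DESeq2 called 4. RPS29 had the smallest p: it had 278, 260.4, 1575 and 1107 CPM in hyperoxia and 392, 289.6, 424 and 279.7 CPM in normoxia, with both hyperoxia vehicle libraries far above the rest, and RN7SL1, which overlaps it, held 238% as many counts. Its own oxygen difference was not called with 8 libraries (0.80, adjusted p = 0.243) but was without IA01 (1.13, adjusted p = 0.00963). Without IA01 1 gene passed, and without IA04, which left IA01 as the only hyperoxia library with no vehicle named, 5743 did. Vehicle against none named, over both exposures, gave 0 genes by edgeR (0.0%), with 242 at an unadjusted p under 0.05 (1.64%) and 0 by DESeq2. A gene that misses the threshold is not shown to be equal in the 2 kinds of control.

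The difference between hyperoxia and normoxia without ATRA was set against the same difference in the 6 ATRA libraries, which share no library with the 8. Calls with ATRA came from the fit of 14 libraries in 6 groups, so their p-values also rest on the spread within the 8, IA01 included. With ATRA, 1975 of 15339 genes were called (12.9%), 989 higher (6.45%) and 986 lower (6.43%), and 1509 were called in both, 54.1% of the list without ATRA and 76.4% of the list with ATRA, all with the same sign. Of the 2786 genes called without ATRA and tested with it, 2720 had the same sign (97.6%). The test of the difference itself passed for 6 of 15339 genes (0.0391%). IGFBP3, which binds insulin-like growth factors, lay at 272 to 304 CPM in hyperoxia and 64.6 to 95.5 CPM in normoxia without ATRA, and at 446 to 511 and 327 to 471 CPM with ATRA (difference of log2 fold changes 1.65, SE 0.173, adjusted p = 0.000991). NFKB2 lay at 222 to 245 and 53.7 to 86.5 CPM without ATRA and at 84.0 to 139 and 74.7 to 95.7 CPM with ATRA (1.38, SE 0.21, adjusted p = 0.0222). PLOD2, a collagen lysyl hydroxylase, lay at 586 to 692 and 153 to 199 CPM without ATRA and at 336 to 388 and 194 to 213 CPM with it (1.05, SE 0.145, adjusted p = 0.0111). CCND3 fell further without ATRA, 82.7 to 120.0 CPM in hyperoxia against 261 to 383 in normoxia, than with ATRA, 112 to 137 against 159 to 197 CPM (-1.31, SE 0.214, adjusted p = 0.0405). FGD6, a regulator of CDC42, differed by 0.99 (adjusted p = 0.0111). GPRC5B, an orphan receptor related to retinoic acid-induced genes, differed by 1.07 (adjusted p = 0.0222) and was not called without ATRA (0.44, adjusted p = 0.136), with 226 to 243 CPM in normoxia and 135 to 164 CPM in hyperoxia with ATRA. NFKB2 was the only one of the 16 NF-kB genes among the 6, although 12 of them were called higher without ATRA and 4 with it. The difference of these counts was not tested. Without IA01 the test of the difference called 20 genes, without IA04 it called 2362, and without any one of IA03, IA05, IA06, IA09, IA12, IA13 and IA15 it called 1 to 3, so this count is decided by single libraries.

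**Figure D5:**
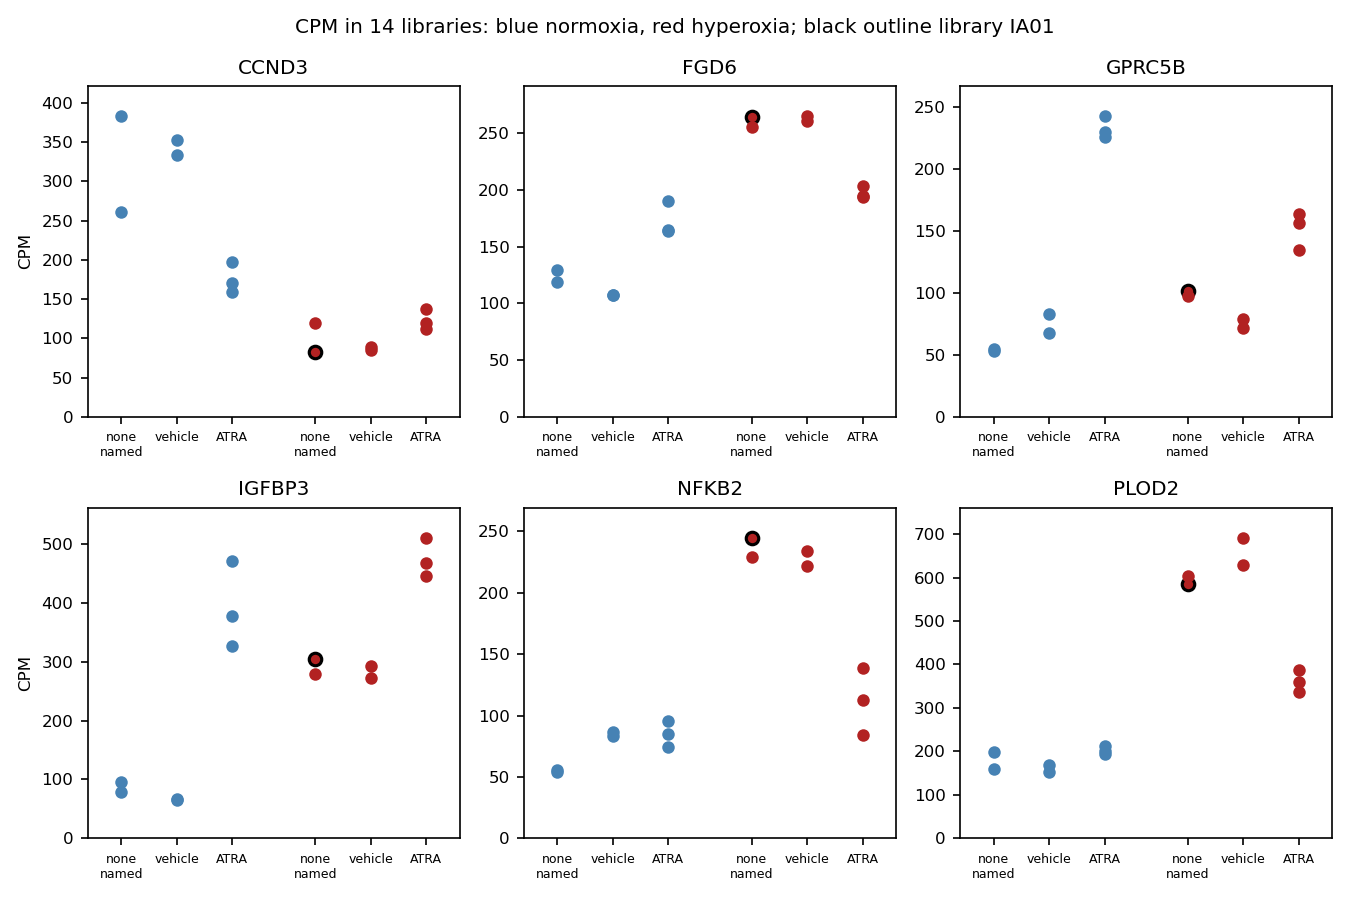
CPM (vertical axes, from 0) of the 6 genes whose oxygen difference passed the test between libraries without and with ATRA, in 14 libraries grouped by treatment (horizontal axis), normoxia blue and hyperoxia red, with IA01 outlined in black. NFKB2 rises from blue to red mostly without ATRA. PLOD2 rises without and with ATRA, and further without it. In GPRC5B the red ATRA points lie below the blue ATRA points.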

How the data were processed

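RNA was sequenced from A549 cells as stranded libraries. Per the labels and the submitters' processing notes, reads were trimmed with Trimmomatic 0.38, aligned to hg38 with HISAT2 and counted per gene with HTSeq, and the authors deposited these counts as whole numbers, not normalized, under 43388 symbols. The annotation release and the strand setting of the counting are not given in the sources used here. Rows that name no gene were left out of library sizes and tests, and reads outside annotated genes made up 50.9% to 55.3% of the reads in these 8 libraries. The label of 1 library names a treatment outside the design, so it was not assigned to a group, and was not used.

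Counts were tested with edgeR 4.0.16 in R 4.3.3 (TMM factors, filterByExpr by 4 groups with minimum count 10 and minimum total 15, quasi-likelihood test, vehicle as a covariate, Benjamini-Hochberg adjustment over all genes tested). A gene was called at an adjusted p under 0.05, with 2-fold meaning past 1 in size on the log2 scale. The standard error (SE) is the log2 fold change divided by the square root of the test's F. The interaction of oxygen with vehicle and the vehicle coefficient were tested in the same 8 libraries, and the difference from the ATRA libraries in a fit of 14 libraries in 6 groups. CPM are counts scaled by TMM library sizes, and those of the fit with ATRA libraries differ slightly since their factors do. Principal components used log2 CPM with a prior count of 2. A fold against a group with at most 3 counts in each library is a lower bound from the highest floor of 3 counts in that group.

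The genes named are members of the gene lists, the 15 with the smallest p in each direction, the 10 with the largest rise and fall, the 10 with the smallest p in each further test, and the 10 that moved most without IA01. LGR4 and other genes outside the lists come from these rules, and overlapping genes are named for their share of counts. The comparison, the members and the lists were chosen with earlier results of these data known. Positions and promoters are RefSeq's for GRCh38.p14, which matched 36114 symbols, 926 of them through a synonym. Promoter letters were also searched for a metal response core, TGCNCNC, in 5 of 5 metallothionein and zinc exporter promoters (100%, against 55.2% of all promoters), an antioxidant core, TGACNNNGC, in 4 of 18 NRF2 target promoters (22.2%, against 13.6%), a sterol element, TCACNCCAC, in 1 of 21 (4.76%, against 1.15%) and a single p53 decamer, of which a full p53 site holds a pair, in 1 of 12, 2 of 11 and 1 of 14 promoters of the 3 p53 and death lists (8.33%, 18.2% and 7.14%, against 6.54%). The list of mitochondrial DNA genes had only RNR1 and RNR2 to test, with 0 called. Some genes that these rules or lists would name are not reported here.

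Alternatives were DESeq2 1.42.0, RLE size factors, no TMM factors, no filter on low counts, no covariate, vehicle libraries alone, libraries with no vehicle named alone, 14 libraries in 6 groups, a block of library sets inferred from the library numbers, and leaving out each library in turn. DESeq2 without IA01 and limma 3.58.1 voom with library weights were chosen after seeing the data. The procedure was tested on simulated counts with known 2-fold and 4-fold changes. The main fit recovered 38% and 66% of these, and 68% and 88% without IA01. With 8 libraries, unchanged genes made up 6.31% of the calls by edgeR and 23.7% of those by DESeq2. The vehicle test recovered 31% and 62%, the interaction 0% and 15%, and the difference from the ATRA libraries 19% and 42%. In the simulation each gene had the same dispersion in every library, so no simulated library stood apart as IA01 did. These shares therefore cannot say how the fits behave with such a library among the 8. Python 3.11.15 with matplotlib 3.10.9 made the plots.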

Additional observations from a re-analysis of the deposited data

Results flagged for a closer look

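A library was looked at again where its gap to the nearest of the other 3 in its exposure, divided by the range of the 4, reached 0.829, Dixon's critical value for 4 samples. Of 358 groups so examined 22 were past it (6.15%), and chance gives about 5%, or 1 in 20. IA01 accounted for 11 of the 22, IA07 for 6, IA08 for 3 and IA04 for 2. Most of the groups examined were of genes named in the text, which were not drawn at random. IGFBP5 and CBS among them were named because leaving out IA01 moved them most. Neither the share flagged nor the part of IA01 in it is therefore a fair tally against chance. IA01 was apart in its share of tested genes with 0 counts, at a ratio of 0.963. It was the highest hyperoxia library for FAS (0.884), TYMS (0.897), IREB2 (0.946), PSAT1 (0.894), IGFBP5 (0.984) and CBS, where the other 3 were at 0 (1.0). It was the lowest for LMNB1 (0.829), DDIT3 (0.84), HSPB8 (0.837) and ATP5F1A (0.837). IA04 was the highest hyperoxia library for CCND3 (0.838) and LGR4 (0.962).

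In normoxia, IA07 was the highest library for CDC6 (0.84), LMNB1 (0.831), HSPA5 (0.911), DDIT3 (0.889) and RSPO3 (0.836) and the lowest for KRT19 (0.927). IA08 was the highest for NQO1 (0.982) and PHGDH (0.862) and the lowest for PGD (0.892). Where a mean and SD are printed for any of these groups, the SD was set mainly by 1 library.

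The oxygen difference passed a test between libraries without and with ATRA for 6 genes. The log2 difference without ATRA minus that with ATRA was 1.65 for IGFBP3, 1.38 for NFKB2, 1.07 for GPRC5B, 1.05 for PLOD2, 0.99 for FGD6 and -1.31 for CCND3.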

How the results depend on the processing

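The count of genes called, 2789, was 4665 in vehicle libraries alone, 58 in libraries with no vehicle named alone, 5282 with a block of library sets, in which IA01 is the only one of the 8 in its set, 4818 in DESeq2 without IA01 and 5458 in limma voom with library weights. Leaving out 1 library gave 1666 to 5286. The 620 genes higher by 2-fold became 40 in libraries with no vehicle named alone, 966 with the block, and 455 to 928 leaving out 1 library. The 580 lower by 2-fold became 965, 18 and 994 in vehicle libraries alone, libraries with no vehicle named alone and the block, 1017 in DESeq2 without IA01, 1072 in voom, and 408 to 1038 leaving out 1 library. The interaction, 0 genes, became 16 with no filter, 4 in DESeq2 and 0 to 5743 leaving out 1 library, where fits that leave 1 library in a group assume that it varies like the other groups. Vehicle against none named, 0 genes, became 9 with no filter and stayed at 0 leaving out 1 library. The difference from the ATRA libraries, 6 genes, became 50 with no filter, 63 in DESeq2 and 1 to 2362 leaving out 1 library. Some of these fits hold fewer libraries, and the cause of these changes was not tested.

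Of the 175 genes with values in the text that were tested, 150 were called, and over 2847 alternative values of these the call was lost in 198 and reversed in 0. Of the 150, 41 were called the same way under every alternative and 130 under every one but the libraries with no vehicle named alone, where IA01 is 1 of 2 hyperoxia libraries and 108 lost their call. Of the 25 not called, 13 were called without IA01. Of 608 alternative list medians, 40 moved by more than the spread between libraries. Where the median with 8 libraries was over 0.1 in size, 5 had the other sign: interferon-stimulated genes without IA04 (0.475 to -0.412), respiratory chain genes in libraries with no vehicle named alone (-0.106 to 0.033), and the 2 mitochondrial RNAs in both fits without IA01 and in voom (-0.14 to 0.042 at the lowest). The labels give no replicate number that the exposures share, so no replicate block was fitted, and the block above rests on sets inferred from the library numbers. At this depth, 3 counts were 0.528 to 1.05 CPM, and no difference below that level was detectable. That level is not the limit of the test. The filter, with a minimum count of 10, also left genes above it untested, CXCL8 with up to 19 counts among them. Of tested genes with a mean under 5 CPM in the libraries other than IA01, 3.65% were called with 8 libraries.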

Other observations

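The gene families of this section were chosen after their values were seen and carry no test of their own. Over all genes tested, 9.71% were called higher and 9.16% lower with 8 libraries, and 17.2% and 17.0% without IA01. Of 46 replication-linked histone genes of the HIST1 to HIST4 clusters, which supply histones in S phase, 15 were called lower and 0 higher (median log2 fold change -1.82), and without IA01 32 were lower and 2 higher. Their summed level was 444 to 589 CPM in hyperoxia and 520 to 1280 CPM in normoxia. Of 78 small nucleolar RNA genes, guides for the modification of ribosomal RNA, 13 were higher and 2 lower (median 1.29), and without IA01 27 of 77 were higher and 4 lower. Their summed level was 1270 to 1600 CPM in hyperoxia, highest in IA01, and 357 to 798 CPM in normoxia, so that the exposures did not overlap. Of 27 transfer RNA genes, 7 were lower and 0 higher, and without IA01 12 were lower and 2 higher, at 1760 to 2240 CPM in hyperoxia and 2320 to 3580 CPM in normoxia.

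All 3 fibrinogen chain genes, which encode an acute phase protein that A549 cells express, were called lower, with a median of -2.53 and a summed level of 23.5 to 35.9 CPM in hyperoxia against 163 to 182 CPM in normoxia. Without IA01, and with ATRA, all 3 were called lower as well. Of 14 circadian clock genes 5 were higher and 0 lower (median 0.75), and without IA01 7 were higher and 1 lower. Of 24 host genes of small nucleolar RNAs 5 were higher and 3 lower (median 0.24), and without IA01 6 and 4.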
